A study of Mus musculus with 8 samples.

Results

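The splicing factor genes described here are those whose array symbol begins with Srsf, Sfrs, Snrp, Hnrnp, Hnrp, Sf3a or Sf3b, with pseudogenes left out. The rule uses gene names and no measured value. It picked 57 of the 12488 probe sets on the array, for 40 of the 8252 genes that a single symbol names. By role they are 16 probe sets for 9 SR proteins, 22 for 16 hnRNP proteins, 9 for 7 core Sm and U snRNP proteins, and 10 for 8 subunits of SF3a and SF3b. Of the 57, 53 were bright enough to be tested, and each of the 40 genes had at least 1 tested probe set. The cells were mouse neurosphere cells, floating cultures of neural stem and progenitor cells, grown from the forebrain of embryos of day 14.5. Every group carried a bcl2 transgene, whose promoter is not given in the sources used here; Bcl2 protects cells from apoptosis. For 2 days the cells had no compound (untreated), 500 nM 5-Aza-2'-deoxycytidine (AzaC), which blocks DNA methylation, 150 nM Trichostatin A (TSA), which blocks histone deacetylases, or both at these doses (AzaC/TSA). Both independent experiments supplied 1 array to each of these 4 groups, so every p-value rests on 2 arrays a group.

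Most mouse genes are transcribed with introns, which the spliceosome removes. Its U snRNPs are particles of a small RNA held in a ring of Sm proteins, and SF3a and SF3b are parts of the U2 particle that settle on the branch point. SR proteins, with a domain rich in arginine and serine, mostly bind exons and recruit the spliceosome, while hnRNP proteins coat the transcript and often oppose splicing at nearby sites. Neural progenitors and neurons use these proteins at different levels, and many SR and hnRNP genes limit their own mRNA through exons that lead to decay.

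Because the SR genes had the largest median fall with TSA of the 4 roles, the promoter sequences of 3 SR genes that fell and of Srsf9, which did not, are shown first, a choice made after their values were seen. Each is the 250 bases before 1 annotated start, 5′ to 3′ on the gene's own strand, from RefSeq on GRCm38.p6. That start need not be the outer end of the gene. The Srsf2 window lies inside the gene's outer bounds, and the Srsf9 window crosses its gene's outer bound. Capitals mark matches on either strand to CCAAT (the NF-Y box), GGGCGG (the GC box), TATAAA (the TATA box), CCGGAAG (an ETS-like element), TTTNGCGC (an E2F-like element) and TTTGAA (a CHR-like element).
Srsf2 (chr11:116853095-116853344, minus strand): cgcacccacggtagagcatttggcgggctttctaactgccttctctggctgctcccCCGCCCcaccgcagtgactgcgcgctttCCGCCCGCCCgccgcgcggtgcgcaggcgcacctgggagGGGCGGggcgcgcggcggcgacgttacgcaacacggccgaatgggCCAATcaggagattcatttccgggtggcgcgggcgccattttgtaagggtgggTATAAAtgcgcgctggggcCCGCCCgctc
Srsf3 (chr17:29032410-29032659, plus strand): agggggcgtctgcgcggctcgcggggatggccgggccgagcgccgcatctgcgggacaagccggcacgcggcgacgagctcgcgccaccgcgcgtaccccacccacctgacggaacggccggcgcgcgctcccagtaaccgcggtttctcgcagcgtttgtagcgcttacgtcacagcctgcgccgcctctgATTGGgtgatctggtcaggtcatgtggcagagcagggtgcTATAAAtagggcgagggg
Srsf6 (chr2:162931258-162931507, plus strand): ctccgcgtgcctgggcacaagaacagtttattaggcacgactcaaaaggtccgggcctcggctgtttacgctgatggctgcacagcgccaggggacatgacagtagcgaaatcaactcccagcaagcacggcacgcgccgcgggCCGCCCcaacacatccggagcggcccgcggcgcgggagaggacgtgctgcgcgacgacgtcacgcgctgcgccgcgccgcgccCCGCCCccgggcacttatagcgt
Srsf9 (chr5:115326927-115327176, plus strand): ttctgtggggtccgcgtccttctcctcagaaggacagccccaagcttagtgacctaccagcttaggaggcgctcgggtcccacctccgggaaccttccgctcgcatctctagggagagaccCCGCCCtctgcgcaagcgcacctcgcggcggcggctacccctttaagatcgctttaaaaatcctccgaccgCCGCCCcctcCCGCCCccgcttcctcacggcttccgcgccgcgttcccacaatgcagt
The Srsf2 and Srsf3 windows each held a CCAAT and a TATAAA match, and those of Srsf6 and Srsf9 held neither. GGGCGG matches stood in the windows of Srsf2, Srsf6 and Srsf9, so a GC box was present in genes that fell and in the one that did not. The 4 windows held 33, 35, 35 and 25 CpG pairs in the order shown for Srsf2, Srsf3, Srsf6 and Srsf9. RefSeq windows were matched for 36 of the 40 splicing factor genes, giving 46 windows. Their median was 19.5 CpG pairs, against 16 over the 6297 windows of genes with a tested probe set and 6 over 32851 promoters in all. The SR windows had a median of 33 CpG pairs and the hnRNP windows of 23. GGGCGG was found in 69.6% of the members' windows, against 58.3% for tested genes and 32.7% for all promoters. CCAAT stood in 43.5%, 35.2% and 33.8%, and TATAAA in 8.7%, 7.13% and 12.4%. CCGGAAG was in 34.8% of the members' windows, against 13.5% for tested genes and 6.91% for all promoters, and its spread by role was uneven: 7 of 8 windows of SF3a and SF3b genes held it, and 1 of 20 hnRNP windows. TTTNGCGC stood in 4.35%, 2.11% and 1.13%, and TTTGAA in 10.9%, 10.6% and 16%. Each motif was counted on its own, also where matches of different motifs could share bases. A match is only a run of letters in these windows.

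All 8 arrays had been scaled to the same trimmed mean, a signal of 200.1, so every value is relative to the rest of the RNA; precision is limited by how few arrays there are. The arrays' medians lay between 59.2 and 72.7, and 53.1% to 58.3% of probe sets reached a signal of 50. The ratio of the 5′ to the 3′ actin probe sets was 0.29 to 0.471 and that for Gapdh 0.738 to 1.04. Pairs of arrays correlated with r between 0.894 and 0.969 over all probe sets but the controls, on log2 values with the floor applied. The stem cell markers Nes and Sox2 were bright on every array on their brightest probe sets (1049 to 3003 and 2391 to 4830). The 3 probe sets of Ptprc, which defines blood cells, read 0.6 to 19.2. Markers of dividing cells moved together with TSA: 17 of the 18 tested fell and none rose (5 of the 17 reached the filter on no array with TSA). Sums of markers take in every probe set of the listed genes, tested or not. For dividing cells the sum was 13010 to 20250 on the 4 arrays without TSA and 1525 to 2875 on the 4 with it. The brighter Mki67 probe set went from 787 to 1226 without TSA to 1.1 to 28.4 with it. Of 8 tested neuronal markers 4 rose and 1 fell, and 1 of the 4 reached the filter only on arrays with TSA. Their list had a summed signal of 2783 to 3923 without TSA and 3169 to 4306 with it. Of 8 tested stem cell markers 1 fell and none rose, with sums of 15430 to 17990 and 6573 to 14510. Of 6 tested blood and microglia markers 1 rose, the macrophage gene Cd68, with sums of 373 to 542 and 625 to 896, and of 6 astrocyte markers 1 rose and 1 fell, with sums of 3235 to 6108 and 4335 to 11120. Over all tested probe sets 7.54% fell and 6.95% rose past the threshold, so 1 call in a list of 6 or 8 does not set it apart. The part of the marked cells in the changes of splicing factors was not tested. In RNA from whole cultures, fewer cells of a type and less RNA per cell cannot be told apart.

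TSA lowered the signal of part of the splicing factor genes and raised none past the threshold. With the 4 arrays that had TSA set against the 4 that did not, 16 of the 53 tested probe sets fell and none rose (limma, Benjamini-Hochberg adjusted p under 0.05 over 7987 probe sets). The 16 include 1 probe set each of Srsf10 and Hnrnpab that reached the filter's signal of 50 on no array with TSA, and these genes are called through them alone; of the other 51, 14 fell, for 12 genes, against 7.24% of the 7433 tested probe sets that reached it on both sides. The 16 stood for 14 genes: Srsf1, Srsf2, Srsf3, Srsf6 and Srsf10 among SR proteins, Hnrnpa2b1, Hnrnpab, Hnrnpd, Hnrnpdl, Hnrnph1 and Hnrnpm among hnRNP proteins, Snrpa1, and Sf3a2 and Sf3a3. Over all tested probe sets 14.5% passed, 7.54% as falls and 6.95% as rises, so falls made up 30.2% of members and 7.54% of the whole array. The median change of the 53 was -0.48 on the log2 scale, against -0.03 over all tested probe sets, and 50 of the 53 lay below 0. By role the medians were -1.10 for SR proteins, -0.51 for hnRNP proteins, -0.42 for Sm and U snRNP proteins and -0.30 for SF3a and SF3b. Summed over the 57 probe sets, the signal was 36080 to 47880 without TSA and 25150 to 30340 with it, which was 0.967% to 1.24% and 0.667% to 0.786% of the summed intensity of an array.

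The pattern also stood in the single arrays. For 26 of the 53 probe sets, all 4 arrays with TSA lay below all 4 without it, against 12.6% of all tested probe sets. For none did all 4 lie above, against 10.9% of all tested. Without the probe sets of Srsf10 and Hnrnpab that reached the filter only without TSA it was 24 of 51. The 26 included all 16 that passed the test, and by role they were 10 of 14 SR, 10 of 21 hnRNP, 1 of 8 Sm and U snRNP and 5 of 10 SF3 probe sets, so the Sm and U snRNP share matched that of the whole array. Counted within experiment and AzaC state, 32 of 53 were lower with TSA in all 4 pairs of arrays, against 22.5% of all tested, and none was higher in all 4, against 20.7%. With the experiment as a replicate block, 26 members fell, for 19 genes, against 23.9% of all tested probe sets called (11.7% higher and 12.2% lower). The genes added were Hnrnpll, Sf3b2, Snrpb, Snrpe and Srsf4. Fewer members passed when any single array was left out, and the share over all tested probe sets in those fits is not given here. The probe sets of Hnrnph1 and Srsf2, together with Srsf6, Srsf3 (101004_f_at) and Hnrnpdl (96083_s_at), passed whichever array was left out.

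**Figure D1:**
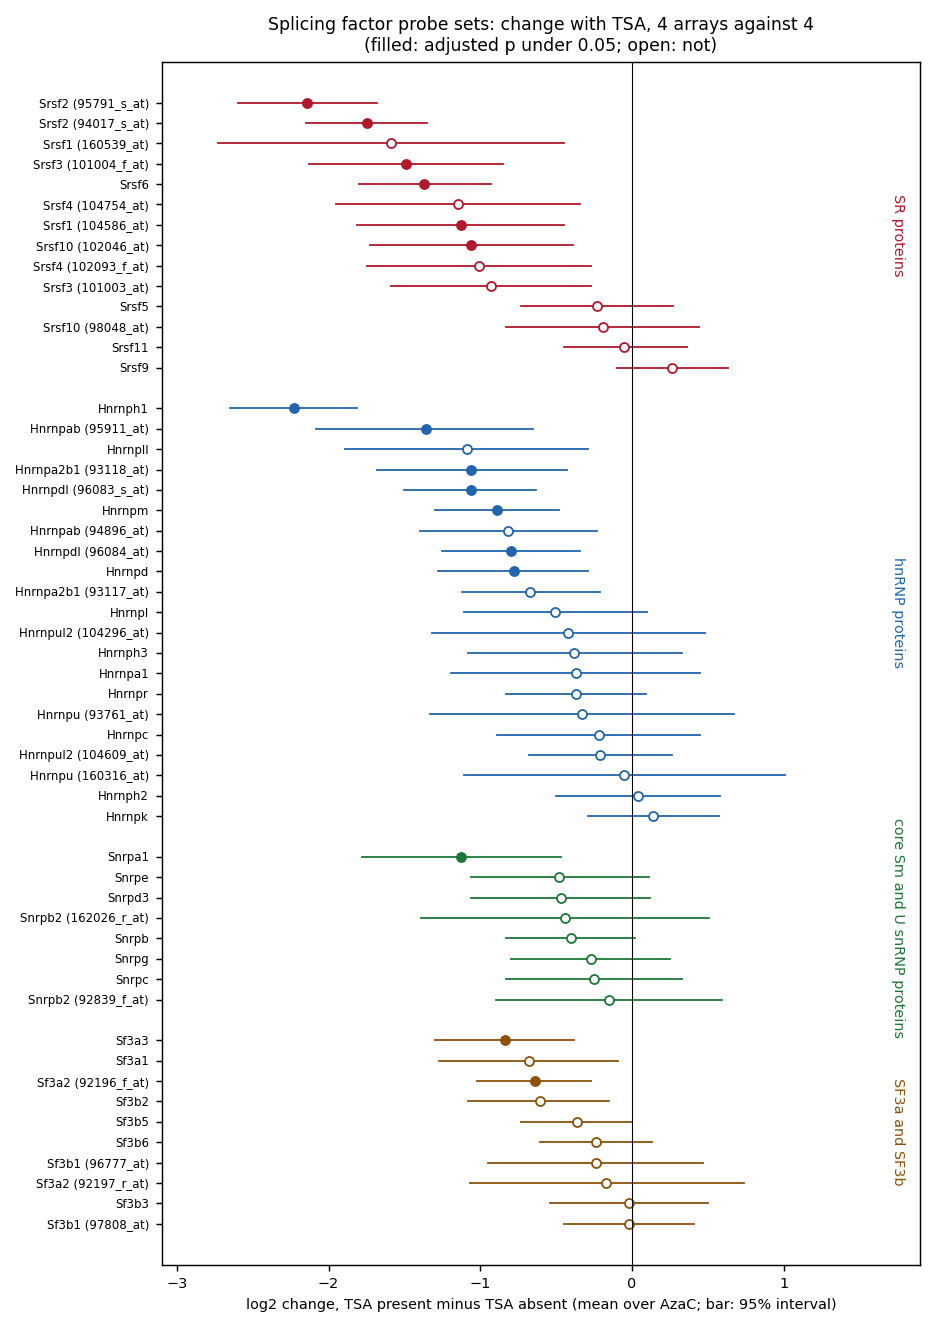
Each row is 1 tested probe set of a splicing factor gene, grouped by role; the point is its log2 change with TSA (4 arrays with TSA minus 4 without) and the bar its 95% interval, with filled points for an adjusted p under 0.05. The 16 filled points all lie left of 0, the farthest being Hnrnph1 at -2.23 and Srsf2 at -2.14, and 3 of the 53 points lie right of 0.

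Among the SR proteins, Srsf2, a protein of nuclear speckles that activates many exons, changed most. Values here and below are linear intensities, given for experiment 1 and then experiment 2. Srsf2 (94017_s_at) read 2234 and 3278 in untreated cells, 2667 and 2707 with AzaC, 785 and 882 with TSA and 774 and 769.6 with AzaC/TSA. The groups with TSA lay far below the others, with no overlap between 881.5 and 2234. Its change with TSA was -1.75 on the log2 scale (SE 0.17, 95% interval -2.15 to -1.35), 3.37-fold lower, with a limma adjusted p of 0.000558. The second Srsf2 probe set (95791_s_at) read 584 and 758 in untreated cells, 733 and 592 with AzaC, 118 and 158 with TSA and 162 and 169 with AzaC/TSA. It fell by 2.14 (SE 0.2, 95% interval -2.6 to -1.68), 4.41-fold, limma adjusted p = 0.000435, so both probe sets gave the same picture.

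Srsf6, another exon-binding SR protein, read 1018 and 1226 in untreated cells, 812 and 765 with AzaC, 421 and 287 with TSA and 348 and 417 with AzaC/TSA. All 4 values with TSA were below the lowest without it, and the AzaC arrays lay between the untreated and the TSA arrays. It fell by 1.37 (SE 0.19), 2.58-fold, limma adjusted p = 0.00295. Srsf3, the smallest SR protein and one that also takes part in mRNA export and in ending transcripts, read on 101004_f_at 589 and 812 in untreated cells, 494 and 753 with AzaC, 168 and 303 with TSA and 182 and 306 with AzaC/TSA. In each group the second experiment was the higher one, and the groups with and without TSA did not overlap. It fell by 1.49 (SE 0.28), 2.81-fold, limma adjusted p = 0.0103; the suffix marks a probe set that can bind related sequences. Without the filter on dim probe sets this p was 0.0701. Its other probe set (101003_at) had a difference of -0.93 and did not pass (adjusted p = 0.064, and 0.0283 with the block), although its 4 values with TSA, 51.6 to 75.8, were below the 4 without, 100.3 to 177.

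Srsf1, the founding member of the family, read on 104586_at 137 and 274 in untreated cells, 178 and 271 with AzaC, 101 and 70.3 with TSA and 113 and 98.3 with AzaC/TSA. It fell by 1.13 (SE 0.3), limma adjusted p = 0.0377. The other tested Srsf1 probe set (160539_at) had a larger difference, -1.59, but spread more (SE 0.5) and did not pass at an adjusted p of 0.0674; within experiments its values were 123.9, 125.1, 37 and 33.2, and 238, 284, 86.2 and 119.7, for untreated, AzaC, TSA and AzaC/TSA. With the experiment as a block its adjusted p was 0.00203. Srsf10, which represses splicing once it is dephosphorylated, read on 102046_at 64.8 and 69.2 in untreated cells, 84.9 and 114 with AzaC, 38.1 and 39.6 with TSA and 36.1 and 42 with AzaC/TSA. These were dim signals that reached the filter's 50 only on the arrays without TSA, so the probe set was tested through the groups where it is high. Its fall of 1.06 (limma adjusted p = 0.0447) passed in only 4 of 17 alternatives, with adjusted p from 0.0139 to 0.13. Its second probe set (98048_at) had a difference of -0.19 (adjusted p = 0.695), the widest gap, 0.87, between probe sets of 1 gene.

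The rest of the SR family did not pass the test without the block. Srsf4 had differences of -1.15 on 104754_at and -1.01 on 102093_f_at (adjusted p = 0.063 and 0.0727), with all 4 TSA arrays below the others on both; with the block these became 0.00649 and 0.0472. Srsf5 had a difference of -0.23 (95% interval -0.73 to 0.27) and Srsf11 one of -0.05 (-0.45 to 0.36). Srsf9 was the only SR probe set above 0. It read 957 and 1159 in untreated cells, 1067 and 910.2 with AzaC, 1365 and 1464 with TSA and 1027 and 1093 with AzaC/TSA. Its values with TSA alone were above the other 6, while those with AzaC/TSA lay inside the range of the arrays without TSA. The difference was 0.26 (SE 0.16, 95% interval -0.1 to 0.63; adjusted p = 0.316).

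Among the hnRNP proteins the change was led by Hnrnph1, which binds runs of G and can favour or block an exon depending on where it sits. It read 964 and 1253 in untreated cells, 844 and 1042 with AzaC, 241 and 204 with TSA and 214 and 209 with AzaC/TSA. Its arrays with TSA spanned 204 to 241 and those without 844 to 1253, with the smallest adjusted p of any splicing factor probe set. It fell by 2.23 (SE 0.19, 95% interval -2.65 to -1.81), 4.68-fold, with a limma adjusted p of 0.000216, and it passed in 19 of 19 alternatives. Its close relative Hnrnph2 read 84.1 and 84 in untreated cells, 104 and 112 with AzaC, 83.4 and 88.7 with TSA and 119 and 104 with AzaC/TSA, a difference of 0.04 (95% interval -0.5 to 0.58; adjusted p = 0.938), and Hnrnph3 had one of -0.38 (adjusted p = 0.465). Whether Hnrnph1 differs from its relatives was not tested.

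Hnrnpdl and Hnrnpd are related proteins that bind AU-rich RNA and act in mRNA decay as well as splicing. Hnrnpdl (96083_s_at) read 1472 and 1987 in untreated cells, 1565 and 1739.6 with AzaC, 722 and 859 with TSA and 685 and 980.2 with AzaC/TSA. It fell by 1.06 (SE 0.19), 2.09-fold, limma adjusted p = 0.00825. Its second probe set (96084_at) fell by 0.80 (adjusted p = 0.032), and on both the arrays with and without TSA were apart. Hnrnpd read 1016 and 1776 in untreated cells, 1003 and 1114 with AzaC, 802 and 590.2 with TSA and 661 and 732 with AzaC/TSA. The untreated array of experiment 2 was well above the rest, and the fall was 0.78 (SE 0.22; limma adjusted p = 0.0437). Over 19 alternatives Hnrnpd's adjusted p ran from 0.0167 to 0.136.

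Hnrnpa2b1, an abundant protein of transcript packaging and RNA transport, was tested by a bright and a dim probe set. The dim one (93118_at) read 116 and 182 in untreated cells, 142 and 113 with AzaC, 65 and 56.4 with TSA and 81.4 and 61.2 with AzaC/TSA and fell by 1.06 (SE 0.28; limma adjusted p = 0.0361). The bright one (93117_at) read 3625 and 5123 in untreated cells, 3335 and 4059 with AzaC, 2035 and 2906 with TSA and 2292 and 2916 with AzaC/TSA. It too had no overlap between arrays with and without TSA, but its difference of -0.67 (SE 0.2, 95% interval -1.12 to -0.21) gave an adjusted p of 0.0574, and 0.00424 with the block. Hnrnpab, a related single-strand binding protein, read on 95911_at 77.6 and 64.6 in untreated cells, 76 and 93 with AzaC, 22.4 and 27.4 with TSA and 33.6 and 39.2 with AzaC/TSA. It fell by 1.36 (SE 0.32; limma adjusted p = 0.0227), near the floor of signal 20. Only its arrays without TSA reached the signal of 50 that the filter asks for, so it was tested through the groups where it is high. The other Hnrnpab probe set (94896_at) had a difference of -0.82 (adjusted p = 0.0662, and 0.0125 with the block). Hnrnpm, which binds GU-rich introns, read 959.5 and 1161 in untreated cells, 1072 and 1315 with AzaC, 667 and 495 with TSA and 621 and 644 with AzaC/TSA and fell by 0.89 (SE 0.18; limma adjusted p = 0.013).

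The other hnRNP genes did not pass the threshold without the block. Hnrnpll, a paralogue of Hnrnpl known from T cell splicing, read 478 and 1029 in untreated cells, 459 and 888 with AzaC, 253 and 371 with TSA and 226 and 463 with AzaC/TSA. In each group experiment 2 was the higher one, and its difference with TSA of -1.09 had an adjusted p of 0.0729 without and 0.00146 with the block. Hnrnpk, a poly-C binding protein, read 643 and 915 in untreated cells, 644 and 716 with AzaC, 688 and 892 with TSA and 785 and 834 with AzaC/TSA, and the arrays with and without TSA overlapped (difference 0.14, 95% interval -0.29 to 0.57). Hnrnpa1, Hnrnpc, Hnrnpl, Hnrnpr, Hnrnpu and Hnrnpul2 had differences of -0.51 to -0.05 with adjusted p of 0.25 or more, Hnrnpr with no overlap of its arrays. Hnrnpu (93761_at) read 0.9 on 1 AzaC/TSA array, which was raised to the floor, and the main Hnrnpa1 probe set was shared with another symbol and lies outside the rule.

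Of the core snRNP genes Snrpa1 changed; it codes for the A' protein of the U2 snRNP. It read 222 and 324 in untreated cells, 173 and 355 with AzaC, 107 and 132 with TSA and 106 and 131 with AzaC/TSA. The arrays with TSA reached 131.5 and those without began at 173. It fell by 1.13 (SE 0.29, 95% interval -1.78 to -0.47), 2.18-fold, limma adjusted p = 0.0327, with adjusted p from 0.00487 to 0.117 over the alternatives. The genes of the Sm proteins, which form the ring shared by the snRNPs, did not pass without the block, and Snrpb and Snrpe did with it. Snrpb, the gene of SmB, read 5161 and 6439 in untreated cells, 6345 and 7587 with AzaC, 4482 and 6083 with TSA and 3835 and 5007 with AzaC/TSA, a difference of -0.4 (SE 0.19, 95% interval -0.83 to 0.02; adjusted p = 0.19, and 0.0366 with the block). Within each experiment its TSA arrays were below those without TSA, and the experiments overlapped. Snrpe read 2217 and 3379.7 in untreated cells, 2108 and 4067 with AzaC, 1802 and 2041 with TSA and 1755 and 2650 with AzaC/TSA, a difference of -0.48 (adjusted p = 0.26, and 0.0449 with the block). The differences were -0.47 for Snrpd3, -0.27 for Snrpg, -0.25 for the U1 protein gene Snrpc, and, for Snrpb2, whose product binds U2 RNA together with that of Snrpa1, -0.44 and -0.15 on its 2 probe sets, all with adjusted p from 0.271 to 0.799.

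In SF3a, the trimer of Sf3a1, Sf3a2 and Sf3a3 that completes the U2 snRNP, Sf3a3 and Sf3a2 fell. Sf3a3 read 463 and 539 in untreated cells, 366 and 526 with AzaC, 296 and 244 with TSA and 271 and 239.7 with AzaC/TSA. It fell by 0.84 (SE 0.2, 95% interval -1.3 to -0.38), 1.79-fold, limma adjusted p = 0.0266. Sf3a2 (92196_f_at) read 954 and 1207 in untreated cells, 1027 and 1206 with AzaC, 707 and 724 with TSA and 696 and 671 with AzaC/TSA. The 4 arrays with TSA were close together, 671 to 724, below 954 to 1207 without it, and the fall was 0.64 (SE 0.17; limma adjusted p = 0.034). Its suffix, as for Srsf3, marks a probe set that can bind related sequences. With all arrays kept, Sf3a3 and Sf3a2 each passed in 9 of 11 alternatives. Neither passed without the intensity trend, Sf3a2 did not under median centring, and Sf3a3 did not without the filter. The second Sf3a2 probe set (92197_r_at) spread more, from 284 to 1118, and had a difference of -0.17 (adjusted p = 0.819). Sf3a1 had a difference of -0.68 (adjusted p = 0.118), with no overlap of its arrays.

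No SF3b gene passed without the block. Sf3b2, which contacts pre-mRNA near the branch point, had a difference of -0.61 (adjusted p = 0.0807, and 0.0345 with the block), with no overlap of its arrays. Sf3b6, which touches the branch point adenosine, read 1298 and 1526 in untreated cells, 1228 and 1488 with AzaC, 1269 and 1159 with TSA and 1169 and 1079.6 with AzaC/TSA; its difference was -0.24 (95% interval -0.61 to 0.13). Sf3b5 had a difference of -0.36 (adjusted p = 0.173). Sf3b1, the large scaffold that clamps the branch site, had differences of -0.02 (95% interval -0.45 to 0.41) on 97808_at and -0.24 on 96777_at, and Sf3b3 one of -0.02 (-0.54 to 0.5).

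**Figure D2:**
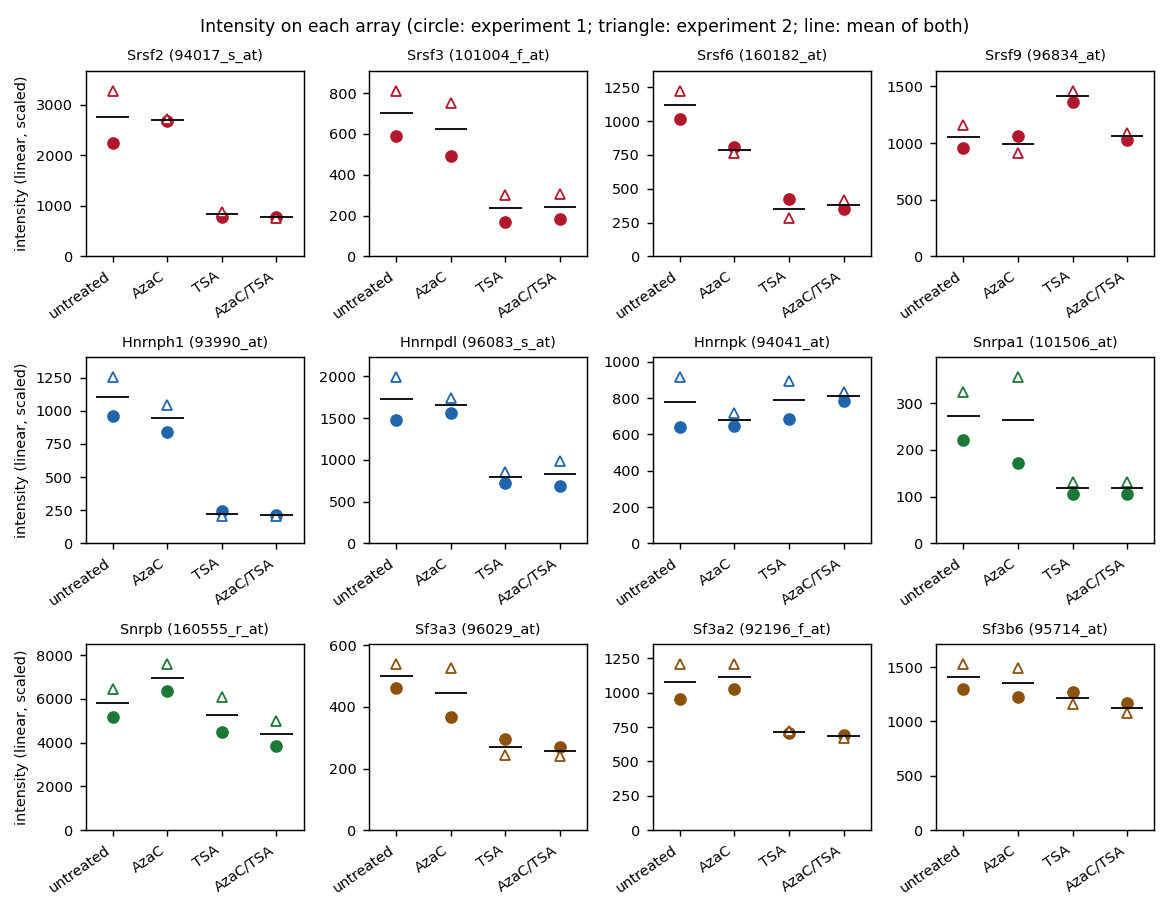
Linear intensity (vertical axis, from 0, each panel on its own scale) of 12 splicing factor probe sets in the 4 groups; circles are experiment 1, triangles experiment 2 and lines the mean of both. Srsf2, Srsf6 and Hnrnph1 drop on all 4 arrays with TSA, with Hnrnph1 at 204 to 241 against 844 to 1253, whereas Hnrnpk and Srsf9 do not.

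Of the 40 genes, 13 had several tested probe sets, and in none did the probe sets lie on opposite sides of 0 for TSA. In 8 of the 13 at least 1 probe set passed, and in Srsf2 and Hnrnpdl all of them did. The 4 members that were too dim for testing were 2 probe sets of Srsf1 (101022_at and 160141_r_at), 1 of Hnrnpdl (161372_f_at) and 1 of Snrpb (161335_r_at). Signals of different probe sets also depend on their probes, so brightness was used only to choose which to name.

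The test of TSA alone asked what the histone deacetylase inhibitor did without AzaC. Against untreated cells 4 of 53 members fell and none rose, namely both probe sets of Srsf2, Srsf6 and Hnrnph1, with 5.02% of all tested probe sets called and 2.93% called lower. The changes were -2.31 for Hnrnph1 (SE 0.26, limma adjusted p = 0.00273), -2.29 and -1.7 for Srsf2 (adjusted p = 0.00485 and 0.00878) and -1.68 for Srsf6 (SE 0.27, adjusted p = 0.0137). These 4 probe sets of 3 genes were 7.55% of the members. The median of the 53 was -0.52, with 45 below 0, and that of all tested 0.01; without untreated replicate 1 the members' median was -0.79. With the experiment as a block 13 members fell, against 12.2% of all tested called (5.6% higher and 6.56% lower). These were 11 genes: Srsf1, Srsf2, Srsf3, Srsf6, Hnrnpa2b1, Hnrnpd, Hnrnpdl, Hnrnph1, Hnrnpll, Hnrnpm and Snrpa1. Fewer members passed without untreated replicate 2 or TSA replicate 2, and the share called over all tested probe sets fell there too. The members' median was -0.45 and -0.6 in these fits. With all arrays kept, Hnrnph1 passed in 12 of 12 alternatives.

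The mean change for TSA added to AzaC came from arrays that the first comparison did not use. Both tests still take their spread from all 8 arrays and use the same 2 experiments, so their calls are not independent. With TSA added to AzaC, 3 of 53 fell and none rose, both Srsf2 probe sets and Hnrnph1, which were all among the 4 above. Of all tested, 2.79% were called and 1.68% called lower. Hnrnph1 changed by -2.15 (SE 0.26, limma adjusted p = 0.00507) and Srsf2 by -1.8 and -1.99 (adjusted p = 0.00764 and 0.00974). Srsf6, at -1.05, did not pass (adjusted p = 0.0824, and 0.0324 with the block). The median was -0.60, against -0.06 over all tested. With the block 11 members fell, against 9.32% of all tested called (4.49% higher and 4.82% lower). Fewer members passed when an AzaC or AzaC/TSA array was left out. Over the 53 probe sets, the change without AzaC and the change with AzaC correlated at r 0.81 and rho 0.72, and 46 had the same sign, 43 of them below 0. Over all 7987 tested probe sets r was 0.75 and 74.8% had the same sign; probe sets of 1 array share its scaling and are not independent.

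Against untreated cells AzaC/TSA lowered the same 4 probe sets as TSA alone, with 3.12% of all tested called and 1.83% called lower, and raised none. The changes were -2.38 for Hnrnph1, -1.81 and -2.01 for Srsf2 and -1.55 for Srsf6 (limma adjusted p = 0.00361, 0.00842, 0.00997 and 0.0201). This comparison shares its untreated arrays with that of TSA alone. With the block 11 members fell, against 9.34% of all tested called (4.38% higher and 4.96% lower). Fewer passed without untreated replicate 2 or AzaC/TSA replicate 1. With all arrays kept, 1 passed without the filter on dim probe sets or with only these groups in the fit.

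**Figure D3:**
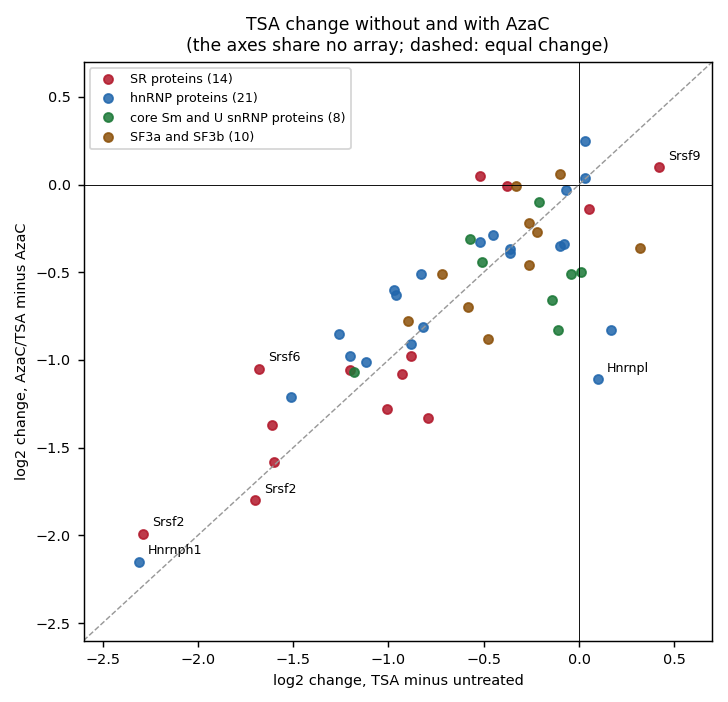
Each point is 1 of the 53 tested probe sets, coloured by role, with the log2 change of TSA minus untreated on the horizontal axis and of AzaC/TSA minus AzaC on the vertical axis; the axes share no array. The points lie near the dashed line of equal change, 43 of 53 below 0 on both axes, with Hnrnph1 and Srsf2 at its end.

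Whether AzaC changed the TSA response was tested by the interaction. No member passed with limma, with 0% of all tested called, and none had an unadjusted p under 0.05. The estimates ran from -1.21 for Hnrnpl (95% interval -2.42 to 0, unadjusted p = 0.0504, adjusted p = 1) to 0.63 for Srsf6 (-0.24 to 1.51), with a median half-width of the intervals of 1.16. Sf3b3, the next by p, had -0.68 (adjusted p = 1). Hnrnpl, which binds CA repeats, read 102 and 122 in untreated cells, 233 and 223 with AzaC, 132 and 108 with TSA and 77.7 and 144 with AzaC/TSA, so the AzaC arrays were above the other 6.

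AzaC itself moved no member past the threshold. In AzaC against untreated, AzaC/TSA against TSA, and AzaC pooled over TSA, 0 of 53 passed with limma and 0% of all tested did; with the block these counts were 0 as well. At an unadjusted p under 0.05 there were 1, 0 and 0 members. In the pooled comparison the differences ran from -0.45 for Hnrnpul2 (104296_at) to 0.55 for Hnrnpu (93761_at), the median was -0.03 against 0.01 for all tested, and 44 of 53 intervals lay within 1 log2 unit of 0 on both sides. The smallest p-values belonged to Sf3b1 (97808_at), with a difference of 0.4 (SE 0.19, 95% interval -0.03 to 0.83), Hnrnpl with 0.43 and Srsf9 with -0.26, each at an adjusted p of 0.998. For AzaC alone they were Hnrnpl at 1.03 (95% interval 0.18 to 1.89; unadjusted p = 0.0233, adjusted p = 1), Srsf6 at -0.5 and Hnrnpu at 1.05. For AzaC added to TSA they were Sf3b3 at -0.62, Srsf9 at -0.42 and Sf3b1 (97808_at) at 0.48. All 4 arrays with AzaC were above the 4 without for 1 member, Hnrnph2, against 0.851% of all tested, and below for none, against 0.488%. The AzaC change without and with TSA, on separate arrays, had the same sign in 26 of 53 members (r 0.08), against 53.8% of all tested. The median half-width of the pooled intervals was 0.58, so missing the threshold does not show that AzaC left these genes as they were.

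**Figure D4:**
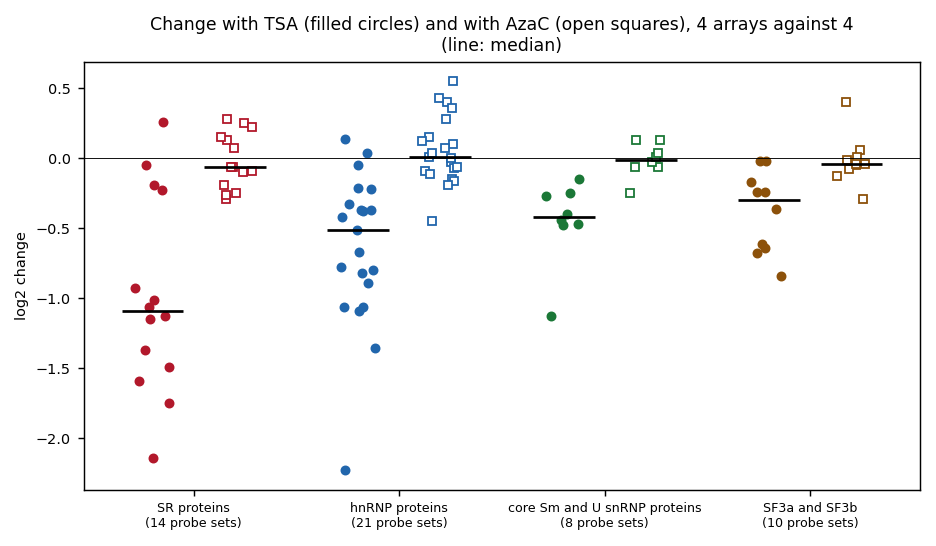
Log2 change of every tested splicing factor probe set with TSA (filled circles) and with AzaC (open squares), each 4 arrays against 4, by role, with a line at the median. The TSA medians are -1.10, -0.51, -0.42 and -0.30 for SR, hnRNP, Sm and U snRNP, and SF3 probe sets, while the AzaC points lie between -0.45 and 0.55.

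The TSA change was present in each experiment. The median over the 53 members was -0.45 in experiment 1 and -0.69 in experiment 2 for TSA against untreated, and -0.54 and -0.62 for AzaC/TSA against AzaC, where all tested probe sets had -0.03, 0.04, -0.08 and -0.03. Below 0 were 42, 44, 42 and 51 of the 53. For SR proteins the 4 medians were -0.86, -1.26, -1.12 and -1.27. The TSA change of experiment 1 and that of experiment 2 had the same sign in 45 of 53 members (r 0.75, rho 0.70), against 70.4% of all tested (r 0.66). The difference of the TSA response between experiments passed the limma test for no member, against 0.025% of all tested, and 1 member had an unadjusted p under 0.05. It ran from -1.16 for Srsf1 (104586_at; 95% interval -2.09 to -0.23, unadjusted p = 0.0199, adjusted p = 0.424) to 1.01 for Srsf4 (102093_f_at). Srsf5 and Sf3a3, next by p, had -0.7 and -0.6 (adjusted p = 0.546 and 0.573).

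Members were called as different between the experiments at a share near that of all tested probe sets. A single experiment difference was fitted for all groups. With group in the fit, 3 of 53 passed (5.66%), 2 higher and 1 lower in experiment 2. Of all tested probe sets 4.22% passed (1.58% higher and 2.64% lower). Srsf1 (160539_at) was higher in experiment 2 by 1.3 (SE 0.26; limma adjusted p = 0.0245) and Hnrnpll by 0.91 (SE 0.17; adjusted p = 0.0177). Hnrnpul2 (104296_at), a relative of the nuclear scaffold protein Hnrnpu, was lower by 2.02-fold, -1.02 on the log2 scale (SE 0.2; adjusted p = 0.0248). It read 343 and 171 in untreated cells, 214 and 128 with AzaC, 254 and 113 with TSA and 196 and 88.8 with AzaC/TSA. Fewer passed when any single array was left out, and 0 did without the intensity trend or without the filter.

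Other genes of splicing were counted from lists by role, with the brightest probe set per gene, for TSA pooled over AzaC. Counted in the same way, 11 of the 40 splicing factor genes fell (27.5%) and none rose, with a median of -0.46. Of 58 tested genes of other spliceosome proteins 7 fell and 1 rose, with a median of -0.23. The smallest p-values were those of Lsm3 (-1.87, limma adjusted p = 0.0012) and Lsm2 (-1.89, adjusted p = 0.00652), Sm-like proteins that hold the end of U6 RNA, U2af2 (-1.04, adjusted p = 0.00787), which reads the pyrimidine tract, and Prpf6 (1.04, adjusted p = 0.00802), a bridge within the tri-snRNP and the one that rose. Lsm3 read 591 and 851 in untreated cells, 721 and 999.5 with AzaC, 230.2 and 190.4 with TSA and 189 and 247 with AzaC/TSA, and Prpf6 read 654 and 643 in untreated cells, 634 and 896 with AzaC, 1488 and 1433 with TSA and 1211 and 1631 with AzaC/TSA. For both genes the arrays with and without TSA were apart, in opposite directions.

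Of 39 tested genes of other splicing regulators 10 fell and none rose, with a median of -0.40. The smallest p-values were those of Elavl1, which binds AU-rich RNA (-1.46, limma adjusted p = 0.00175), Rbmx, an hnRNP-type protein (-1.61, adjusted p = 0.0035), Tra2b, an SR-like exon activator (-1.13, adjusted p = 0.00876), and Ptbp2, the neural polypyrimidine tract binding protein (-1.52, adjusted p = 0.012). Of 9 kinases and phosphatases that act on SR proteins 1 fell, Srpk1 (-1.2, adjusted p = 0.036), with a median of -0.44. Of 12 genes of snRNP assembly and import 1 fell, the importin Kpnb1 (-0.85, adjusted p = 0.0203), also with a median of -0.44. Of 9 genes of the exon junction complex and mRNA export 3 fell, the adaptor Alyref (-1.37, adjusted p = 0.00321), the helicase Ddx39b (-0.93, adjusted p = 0.0166) and Pnn (-0.93, adjusted p = 0.0488), again with a median of -0.44. None rose in these 3 lists. Some genes stand in more than 1 list, and no list was tested as a whole; all tested probe sets had a median of -0.03, with 7.54% called lower.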

How the data were processed

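The authors deposited linear intensity values, 1 per probe set for each of 8 short-oligonucleotide arrays, which they scaled to a common 2%-trimmed mean of 200.1, as the values show; the software is not given in the sources used here. All 8 columns map to a sample by title. The 66 control probe sets were left out, values under a signal of 20 (10% of the trimmed mean) were raised to it, and log2 was taken. Probe sets with at least 2 of 8 arrays at a signal of 50 (25%) were tested, 7987 in all (64.3%). The platform annotation gave 10855 probe sets a single symbol, 396 several and 1237 none; 10839 of the single ones, and all 57 members, matched RefSeq. The floor leaves dim genes with understated changes, and the filter can admit a probe set only through the groups where it is high.

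Contrasts came from limma 3.58.1 under R 4.3.3 (1 mean per group over all 8 arrays, eBayes with an intensity trend, 4 residual and 4.93 prior degrees of freedom), two-sided, with Benjamini-Hochberg adjustment over the 7987 and a threshold of 0.05. There were 10 contrasts: TSA, AzaC and AzaC/TSA each against untreated, AzaC/TSA against AzaC and against TSA, each compound pooled over the other, their interaction, the experiment, and TSA by experiment. Figures and promoter counts used Python 3.11.15 with pandas 2.3.3 and matplotlib 3.10.9. The fit was also run on simulated data. Their noise was independent between arrays, so that run does not bear on the deviations that arrays of 1 experiment share.

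Titles number the experiments, so arrays of 1 number share an experiment. Arrays of 1 experiment deviated together from their groups' means, with r of 0.203 to 0.411 (6 group pairs, all tested probe sets) and 0.241 to 0.571 (members). The numbers therefore pair the arrays. The main p-values leave this pairing out, and the experiment as a block (3 residual and 6.71 prior degrees of freedom) was an alternative. Other alternatives were quantile normalization, median centring, other floors and filters, variance models, fits on fewer groups, and each array left out.

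Named are members past the threshold (or the 3 of smallest p where fewer than 3 passed), per role those of largest and smallest TSA change and the 2 brightest, and up to 4 genes of each other splicing list by p; further members were named after their values were seen. The members and lists were chosen with earlier results of these data known.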

Additional observations from a re-analysis of the deposited data

How the results depend on the processing

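No named call of a member reversed its direction under any alternative, and the counts for AzaC (alone, added to TSA and pooled), for the interaction and for TSA by experiment were 0 under all of theirs. With the experiment as a replicate block the number of members called was 13 for TSA against untreated (4 without it), 11 for AzaC/TSA against untreated (4), 11 for AzaC/TSA against AzaC (3) and 26 for TSA pooled (16); it left the counts for AzaC and for the interaction at 0 and was not a separate fit for the contrasts of experiments. Without the filter on dim probe sets the counts were 1 for AzaC/TSA against untreated, 9 for TSA pooled and 0 for the experiments. Without the intensity trend they were 10 for TSA pooled and 0 for the experiments. With only the groups compared in the fit, AzaC/TSA against untreated gave 1. Leaving out each array in turn gave 1 to 4 for TSA against untreated, 0 to 4 for AzaC/TSA against untreated, 1 to 3 for AzaC/TSA against AzaC, 6 to 12 for TSA pooled and 0 to 1 for the experiments. The members' median for TSA pooled stayed between -0.67 and -0.44; that for TSA against untreated was -0.79 without untreated replicate 1, and that for AzaC pooled ran from -0.10 to 0.08 as arrays were left out. Median centring moved the median of all tested probe sets in AzaC against untreated from 0.03 to -0.13 and in the interaction to 0.15, with member medians of -0.17 and 0.22 there, so directions of AzaC medians near 0 are set by the scaling. TSA pooled gave 12 calls under centring and 17 under quantile normalization. Why the counts moved was not tested. Dim probe sets limit Srsf10, Hnrnpab and Hnrnpu, and 2 arrays per group limit all comparisons.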
